A study of Mus musculus with 7 samples.

Results

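RNA that came down with an antibody against HuR was sequenced (RNA immunoprecipitation sequencing, RIP-seq) in the mouse colon cancer line CT26.WT. The sites described here are the 1743 that were called with the same chromosome, start and end in exactly 2 of the 3 HuR immunoprecipitations and that touched no site of the remaining one. They are drawn from 18072 sites listed over the 3 immunoprecipitations, 4722 in list 1, 5384 in list 2 and 7966 in list 3. Lists 1 and 2 shared 417 such sites, lists 1 and 3 shared 442, and lists 2 and 3 shared 884. They lie in 1417 of the 6277 genes with a site in any list, or 22.6% of these genes. Of the 3465 genes with sites in at least 2 lists, they make up 40.9%. The calls themselves chose these sites, so their number, their presence in both lists and their absence from the remaining list are descriptions, and nothing was tested with them.

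Besides the 3 precipitates of endogenous HuR, the series holds 3 with control IgG and 1 library of input RNA, all from the CT26 line with the genotype given as WT and no drug or gene transfer named. Separate cultures are not mentioned in the labels, and the series' design describes the input as RNA that was divided, so the spread between lists can be technical. A list number below stands for the HuR immunoprecipitation of that number. IgG and input were not analysed here.

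HuR, encoded by Elavl1, is an RNA-binding protein that shuttles between nucleus and cytoplasm. It binds AU-rich and U-rich stretches of RNA, many of them in 3' untranslated regions and introns, and is best known for slowing the decay of the mRNAs it holds. In intestinal epithelium and in colon cancer cells it is studied for its hold on mRNAs of growth, stress and inflammation.

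Each site carries the authors' fold enrichment, which is a ratio of signal over a control whose identity is not given in the sources used here. It also carries a score, which is the log10 of the peak caller's p times minus 10, and a false discovery rate. These values were called library by library, so they have no error between replicates, and read depth is unknown. The lists differ in level: over all sites the median fold stood at 7.21, 6.41 and 8.38 in lists 1, 2 and 3. A fold in one list set beside a fold in another therefore shows no change in binding. Of the markers of colon epithelium looked up, Epcam, Cdh1, Krt8, Vil1 and Cdx2 had no listed site. Krt18 had 1 site, in list 2 only, and Krt20 had 1 in list 2 and 3 in list 3, without an identical one. Of the genes of other cell types looked up, Ptprc had no site. Alb and Hbb-bs had 1 each in list 2, and Col1a1 had 1 in list 1. The lists hold called sites and not expression, so this does not test the labelled cell type.

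Where sites of a pair of lists overlapped, most had the same bounds. Of 821 overlapping pairs of sites between lists 1 and 2, 557 were identical to the base (67.8%), of 784 between lists 1 and 3, 586 were identical (74.7%), and of 1281 between lists 2 and 3, 1037 were identical (81.0%). Sites identical in all 3 lists numbered 140, and these are counted in each pair. A further 183, 149 and 184 pairs shared 1 bound only, and the other bound then lay a median of 44, 43 and 63 bases away. Pairs that overlapped without sharing a bound numbered 81, 49 and 60. Partial overlap was thus the less frequent form in each pair of lists, as the plot of bound sharing shows. The sites identical in exactly 2 lists made up 18.2% of list 1, 24.2% of list 2 and 16.6% of list 3.

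**Figure D1:**
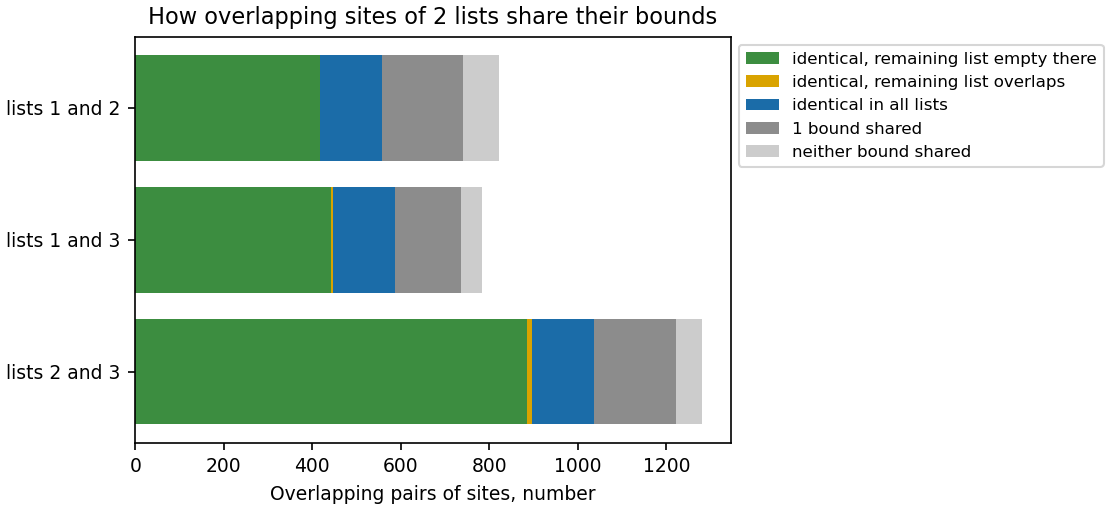
Number of overlapping pairs of sites (horizontal axis) for each pair of lists, split by whether the sites share both bounds, 1 bound or neither, and by what the remaining list holds there. Identical sites with nothing in the remaining list, in green, number 417, 442 and 884, and in each row they are the largest class.

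A further 17 sites were identical in 2 lists but overlapped a site of the remaining list, and were left out. In 16 of them the site of the remaining list lay inside the identical one, and in Mras, which encodes a Ras-related GTPase, the identical site lay inside the other. The longest was a site of 4558 bases in Ado, the gene of a cysteamine dioxygenase, with folds of 7.98 in list 2 and 6.68 in list 3. List 1 held a site of 4041 bases there with a fold of 7.37. In Hectd4, a gene of the HECT ubiquitin ligase family, a site of 439 bases had folds of 15.2 in list 1 and 14.8 in list 3, and the site of list 2 inside it covered 415 bases with a fold of 7.21. These sites lie just outside the rule. Just inside it, the nearest site of a remaining list lay 382 bases away, in Mterf4, a mitochondrial transcription termination factor, where the identical site had folds of 6.56 in list 1 and 6.27 in list 2. A site in Acsbg1, which encodes an acyl-CoA synthetase, had its neighbour at 394 bases with folds of 10.1 in list 1 and 9.64 in list 3. Of the 1743 sites, 3 had a neighbour in the remaining list within 500 bases, 40 (2.29%) within 1000 bases, and 526 (30.2%) within 10000 bases. Close neighbours were rare between lists in general. Among all sites of a list that overlapped none of another, 0.35% to 0.85% had a neighbour there nearer than 382 bases. Shares over all sites at the wider distances were not worked out.

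Absence of the site from the remaining list did not mean absence of the gene. Of the 399 genes with a site identical in lists 1 and 2, 230 had a site elsewhere in list 3, or 57.6% (exact binomial 95% interval 52.6 to 62.5). For lists 1 and 3, 256 of 408 genes had one in list 2, or 62.7% (57.9 to 67.5). For lists 2 and 3, 399 of 781 genes had one in list 1, or 51.1% (47.5 to 54.6). The intervals cover counting error over genes only. Where the same gene had a site in the remaining list, it lay a median of 8363, 8911 and 10671 bases away. Over all pairs, 714 of the 1417 genes had sites in all 3 lists and 703 had sites in exactly 2. Genes with an identical site also held more sites in general, with a median of 5 over the 3 lists against 2 over all genes with a site. The rule sets part of that difference, since such a gene holds at least 2.

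The identical sites were short. Their median length was 159 bases for lists 1 and 2 (quartiles 112 and 243), 142 for lists 1 and 3 (109 and 186) and 138 for lists 2 and 3 (105 and 185). The 140 sites identical in all 3 lists had a median of 138.5 bases. Sites without any overlap had medians of 179, 160 and 150 bases in lists 1, 2 and 3, and sites that overlapped with different bounds were the longest, at 463.5, 605.5 and 689.5 bases. Length bears on the rule directly, since a longer site has more room to differ in a bound or to touch a neighbour. Its part in these counts was not tested.

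**Figure D2:**
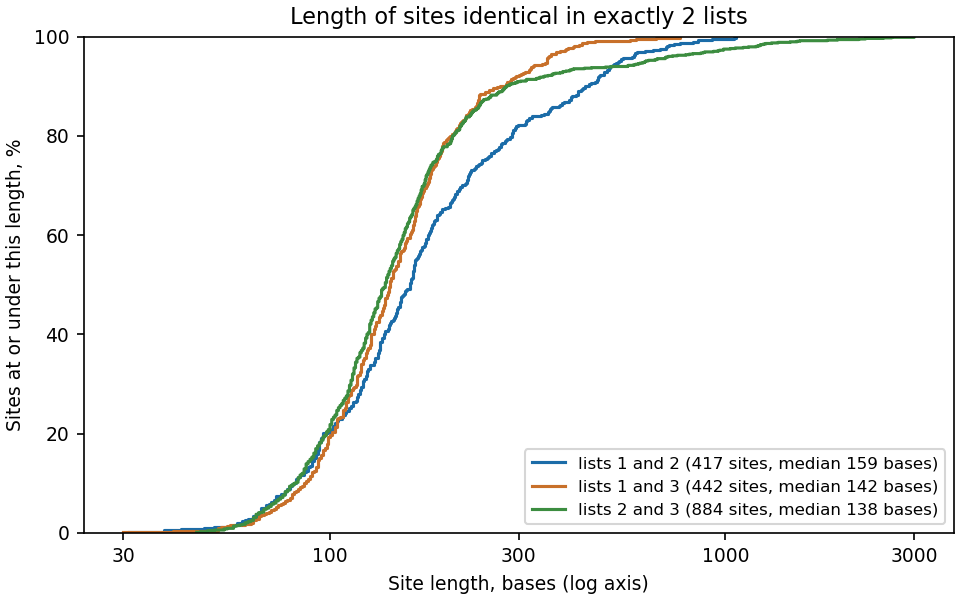
Cumulative share of the sites identical in exactly 2 lists (vertical axis, percent) at or under a given length in bases (horizontal log axis), 1 line for each pair of lists. The medians are 159, 142 and 138 bases, and the line for lists 2 and 3 extends furthest to the right, to 3005 bases.

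A tail of long sites was found mainly in lists 2 and 3. Sites of 1000 bases or more numbered 22 there, while lists 1 and 2 shared 2 and lists 1 and 3 shared 0. Of the sites identical in exactly 2 lists, 0.23% in list 1, 1.84% in list 2 and 1.66% in list 3 were this long. Among sites without any overlap the shares were higher, at 3.86%, 5.63% and 6.93%. The longest, of 3005 bases on chromosome 18, lay in Mex3c, which encodes an RNA-binding ubiquitin ligase, with folds of 5.86 in list 2 and 7.98 in list 3. In Csnk1a1, the gene of casein kinase 1 alpha that phosphorylates beta-catenin, a site of 2636 bases on the same chromosome had folds of 5.16 in list 2 and 6.83 in list 3. None of these folds was above the medians of the pair, 5.91 and 8.75. Ccng1, which encodes cyclin G1, held a site of 2508 bases (chromosome 11, 40639379 to 40641886) with folds of 4.24 and 6.11. Mis12, of the kinetochore, held one of 2262 bases with folds of 2.81 and 7.11. A site of 2177 bases in Sephs2, a selenophosphate synthetase, had folds of 4.14 and 8.68. All 3 had the higher fold in list 3, as did 88.3% of all identical sites of this pair.

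The longest sites of lists 1 and 2 lay in a regulator of cyclin D-dependent kinase and in a motor subunit. In Sertad1, the kinase regulator, the site spanned 1064 bases (chromosome 7, 27188678 to 27189741) with folds of 4.69 in list 1 and 2.65 in list 2. In Dync1li1, a light intermediate chain of cytoplasmic dynein, it spanned 1050 bases (chromosome 9, 114552321 to 114553370) with folds of 2.92 in list 1 and 4.18 in list 2. The lists thus ranked these sites in opposite order. Sertad1 had no site in list 3. For lists 1 and 3 the longest site lay in Rsl1d1, a nucleolar protein gene, with 768 bases and folds of 5.59 in list 1 and 7.97 in list 3. The next, in Pla2g6, a calcium-independent phospholipase A2, had 668 bases and folds of 5.48 in list 1 and 5.43 in list 3.

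Within a pair, folds of the same site ranged widely. The sites of lists 1 and 2 had a median fold of 6.94 in list 1 and 6.58 in list 2, and the fold was higher in list 1 for 226 sites, higher in list 2 for 190 and equal for 1. The sites of lists 1 and 3 had medians of 6.43 and 8.60, with list 3 higher for 340 of 442 sites (76.9%). The sites of lists 2 and 3 had medians of 5.91 and 8.75, with list 3 higher for 781 of 884 (88.3%). List 3 has the highest median fold over all of its sites as well. After division of each fold by the median of its list, an alternative chosen after the values were seen, list 3 was higher for 64.0% and 64.1% of these sites. The same division turned the order of lists 1 and 2, with list 2 higher for 60.2% of their sites against 45.6% before it.

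**Figure D3:**
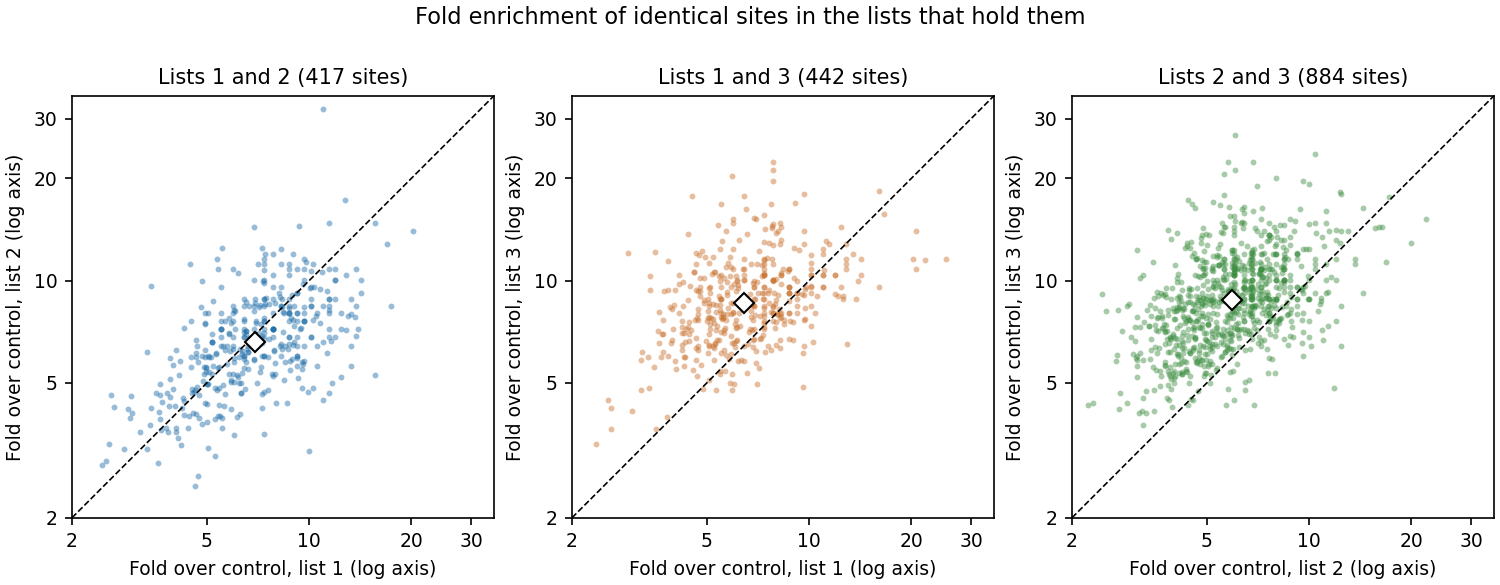
Fold enrichment over control of each identical site in one list against the other (both log axes), 1 panel for each pair of lists and 1 point for each site. The dashed line marks equal folds and the white diamond the medians (6.94 and 6.58, 6.43 and 8.60, 5.91 and 8.75). Most points of the middle and right panels lie above the line.

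Spearman's rank correlation of the fold between lists, across sites, was 0.56 over 417 sites, 0.39 over 442 and 0.45 over 884. The correlation of the caller score was 0.11, -0.02 and 0.20 over the same sites. The sites share their bounds and transcript by construction, and these values describe sites and not replicates. The order of fold was thus partly kept between lists, and the order of score hardly at all. In Sertad1, for instance, the score was 504.5 in list 1 and 71.1 in list 2. Between length and fold the rank correlation lay between -0.14 and 0.02 in all 6 combinations of pair and list.

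The median folds of the identical sites were close to those of sites found in a single list. In list 1 the sites identical in exactly 2 lists had a median fold of 6.65, against 7.35 for sites without overlap. The values were 6.02 and 6.53 in list 2, and 8.72 and 8.25 in list 3. Sites identical in all 3 lists had medians of 6.44, 5.99 and 8.95. Recurrence of a site was therefore not accompanied by a distinctly higher fold in any list. A score under 70 was held by 28.1% and 34.1% of the sites of lists 1 and 2, by 44.1% and 41.2% of those of lists 1 and 3, and by 42.4% and 28.3% of those of lists 2 and 3, in the order of the lists. Over whole lists the shares were 32.6%, 37.4% and 34.4%. None of the 1743 sites had a false discovery rate under 5% in either list, a level reached by 1 site in all 3 lists. The deposited rate, read as percent, had medians of 15.3 and 12.98 for lists 1 and 2, 15.98 and 9.66 for lists 1 and 3, and 13.01 and 9.78 for lists 2 and 3.

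The strongest sites, ranked by the lower of their 2 folds, fell in genes of varied function. A fold of at least 10 in both lists was reached by 83 sites (4.76%). Of the 417 sites of lists 1 and 2, 16 did so (3.84%). The counts were 30 of 442 for lists 1 and 3 (6.79%) and 37 of 884 for lists 2 and 3 (4.19%). A site found in a single list has no second fold, so there is no like share over all sites. In lists 1 and 2 the first was in Usp36, which encodes a nucleolar deubiquitinase, at chromosome 11, 118180783 to 118181070, with folds of 15.6 in list 1 and 14.8 in list 2. Unkl, a zinc finger gene of the unkempt family, followed with 20.2 in list 1 and 14.01 in list 2 at chromosome 17, 25420016 to 25420149. Hibch, an enzyme of valine breakdown, had folds of 16.99 in list 1 and 12.8 in list 2. In these 3 genes list 1 gave the higher value. The order was the other way in Ddx19b, an RNA helicase of mRNA export, with 12.8 in list 1 and 17.3 in list 2 at chromosome 8, 111735282 to 111735473. Sord, the gene of sorbitol dehydrogenase, had folds of 11.5 in list 1 and 14.8 in list 2. Unkl, Hibch and Ddx19b had no site in list 3.

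The widest gap among the leading sites was in Hbb-bt, an adult beta-globin gene, with folds of 11.02 in list 1 and 32.03 in list 2 (chromosome 7, 103462646 to 103462868). The neighbouring Hbb-bs is a near-identical copy, so the reads behind this site may belong to either gene, and list 2 also held a site in Hbb-bs. Globin is a product of red cell precursors. Cdk14, a cyclin-dependent kinase, had folds of 13.8 in list 1 and 10.8 in list 2, and the centriole gene Cep120 had 11.9 in list 1 and 10.8 in list 2. In both genes list 3 held sites elsewhere, 2 in Cdk14 and 5 in Cep120.

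In lists 1 and 3 the site with the highest lower fold lay in Zfp97, a zinc finger gene, at chromosome 17, 17362998 to 17363124, with folds of 16.03 in list 1 and 18.4 in list 3. Cnot4, whose product is a ubiquitin ligase of the CCR4-NOT deadenylase complex, had 16.6 in list 1 and 15.7 in list 3 at chromosome 6, 35110437 to 35110659. Ppp4r2, a regulatory subunit of protein phosphatase 4, had 20.7 in list 1 and 14.01 in list 3. The fold of these 3 sites was at least 14.0 in both lists. Abcc5, an exporter of cyclic nucleotides, had nearly equal folds of 12.9 in list 1 and 12.8 in list 3. Zfp933, also a zinc finger gene, had 12.4 in list 1 and 14.4 in list 3 over a site of 127 bases, the same length as that in Zfp97. Zinc finger genes of this kind have many close copies, so both sites are uncertain as to gene. Plekhb2, a protein of recycling endosomes, held the shortest of these leading sites, 40 bases, with folds of 13.5 in list 1 and 12.01 in list 3. Col4a5, a collagen IV chain, had 20.2 in list 1 and 11.6 in list 3 at chromosome X, 140394171 to 140394241. Of these genes, Zfp97 and Ppp4r2 had no site in list 2.

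Among the strongest sites of lists 2 and 3 was that in Trim3, a ubiquitin ligase gene, with 16.4 in list 2 and 14.4 in list 3 at chromosome 7, 105274613 to 105274778. Sos2, an exchange factor that loads Ras with GTP, had 14.4 in list 2 and 16.4 in list 3 at chromosome 12, 69686828 to 69687034. The last of these had its higher fold in list 3, while Trim3 had it in list 2. Myo19, a mitochondrial myosin, had 16.02 in list 2 and 14.4 in list 3. Ids, a lysosomal sulfatase, had 15.6 in list 2 and 14.3 in list 3 on chromosome X. Tnfrsf10b, the receptor for the death ligand TRAIL, had 13.01 in list 2 and 14.04 in list 3 at chromosome 14, 70010826 to 70010936. Unlike most sites of this pair, Myo19 and Ids had the higher fold in list 2. Cwf19l1 had 20.02 in list 2 and 12.9 in list 3, and Chd9, a chromatin remodeller, had 12.4 in list 2 and 18.02 in list 3. Sos2, Tnfrsf10b and Cwf19l1 had no site in list 1. A further site of this rank lay in a gene model without a proper name, which the naming rule passes over. Such models held 13 of the identical sites.

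**Figure D4:**
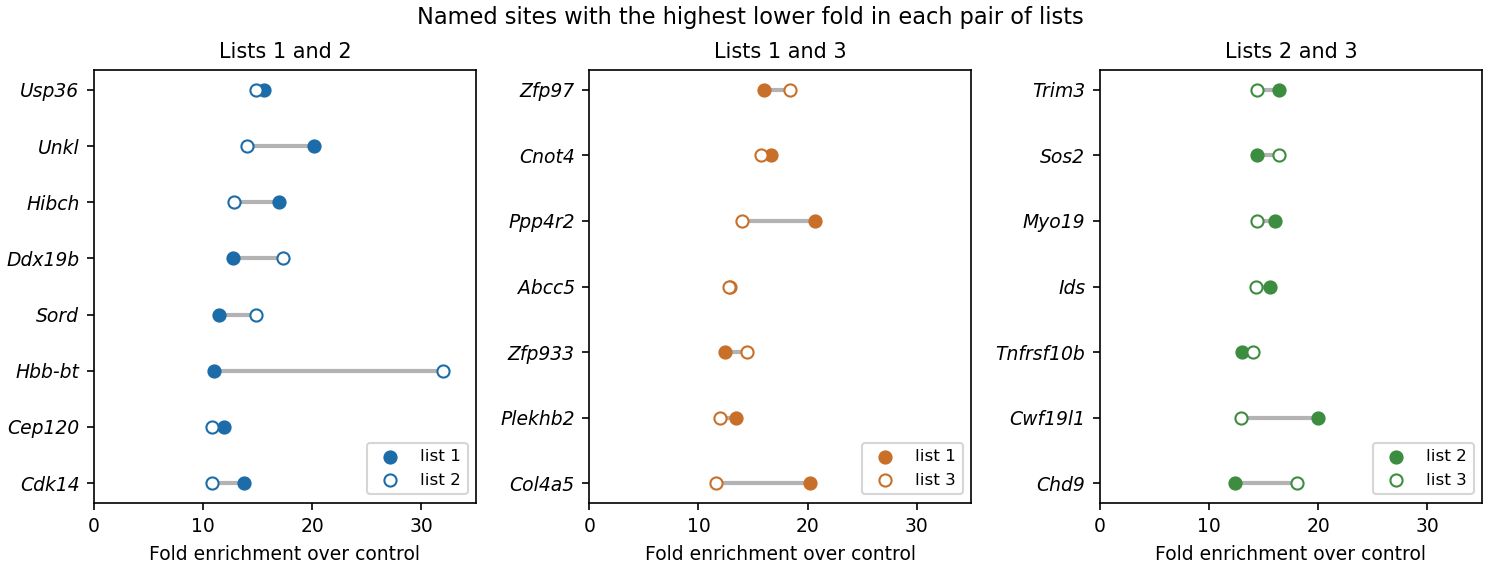
Fold enrichment over control (horizontal axis) of the named sites with the highest lower fold in each pair of lists, with a filled point for the list of lower number and an open point for the other. The points are closest for Abcc5 (12.9 and 12.8), and the gap is widest for Hbb-bt (11.0 and 32.03).

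At the other end stood sites whose lists disagreed most. In Eed, a subunit of the Polycomb repressive complex PRC2, folds were 6.05 in list 2 and 26.8 in list 3 (chromosome 7, 89603862 to 89604271). In Itga6, an integrin chain, they were 2.92 in list 1 and 12.1 in list 3 (chromosome 2, 71658240 to 71658358). In Aacs, acetoacetyl-CoA synthetase, the order was reversed, with 9.98 in list 1 and 3.15 in list 2. The ratio of the higher to the lower list was 4.44 in Eed and 4.14 in Itga6. Rab43, a small GTPase of the Golgi, had the highest fold of any identical site in list 1, 25.25 in list 1 and 11.6 in list 3. These sites, identical in position to the base, differed in fold by more than the medians of their lists do.

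A minority of genes held several identical sites. A single one was found in 1153 of the 1417 genes, 264 held 2 or more, 51 held 3 or more and 10 held 4 or more. Of the 264, 165 had sites from more than 1 pair of lists and 99 had all of theirs from a single pair. Sites of all 3 pairs occurred in 6 genes, namely Igf2r, Septin2, Slc12a2, Syne1, Tbcd and Thada. From the genes with several sites, those with at least 4 or with all 3 pairs are named, a narrowing made after the values were seen.

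Slc12a2, the sodium-potassium-chloride cotransporter NKCC1 of secretory epithelium, held the most, 5 sites on chromosome 18 spread over 38866 bases. One site of lists 1 and 2 had folds of 6.94 and 8.59 and the other 7.16 and 6.58. The site of lists 1 and 3 had 6.83 and 6.37. Of the sites of lists 2 and 3, one had 8.68 and 11.6 and the other 6.41 and 8.19. The sites were 87 to 141 bases long, and the gene held 4, 6 and 8 sites in lists 1, 2 and 3. The 2 sites of lists 1 and 2 lay at the ends of the span, and the sites of the other pairs lay between them. The lower folds ran from 6.37 to 8.68.

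Igf2r, the receptor that carries IGF2 and lysosomal enzymes inward, held 4 identical sites over 14942 bases of chromosome 17. The strongest, at 12919229, had folds of 21.9 in list 1 and 11.5 in list 3. The site of lists 1 and 2 had folds of 6.93 and 8.80. The weaker site of lists 1 and 3 had 9.70 and 9.46, and that of lists 2 and 3 had 6.19 and 7.50. Syne1, the giant nuclear envelope protein nesprin-1, held 4 sites over 229900 bases with lower folds of 5.22 to 10.0. Papola, the poly(A) polymerase, held 4 over 22994 bases. In Papola, both sites of lists 1 and 2 had low folds, 4.27 and 4.01 at one and 4.52 and 4.81 at the other. Both sites of lists 2 and 3 in the same gene were much higher in list 3, with 4.84 and 13.6 at one and 4.03 and 11.2 at the other.

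Of the rest, Lrrk2, a kinase linked to Parkinson's disease, held 3 sites of lists 2 and 3 and 1 of lists 1 and 3, with lower folds of 3.71 to 7.61. Vps13c, a lipid transfer protein of late endosomes, showed the same split, with lower folds of 6.04 to 9.61. Dpy19l1, a C-mannosyltransferase family gene, did so too, and its best site had folds of 10.4 in list 2 and 23.6 in list 3. The F-box gene Fbxl17 held 3 sites of lists 1 and 3 over 265863 bases with a single one of lists 2 and 3. Uimc1, the BRCA1-complex protein RAP80, held 2 sites each of lists 1 and 2 and of lists 1 and 3, and none of lists 2 and 3. Hectd4 held 2 each of the pairs with list 3. Septin2, a cytoskeletal GTPase, had the lowest fold of the group, with lower values of 2.67 to 5.16, while Tbcd, a tubulin chaperone, reached 8.72 and Thada 7.21.

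Grouped by function, 26 gene lists were read against the 22.6% of all genes with a site that held an identical one. The share ran from 9.52% to 37.7% with a median of 26.1%, and it was above 22.6% in 18 lists. Exact binomial 95% intervals left out 22.6% in 5 lists, among them chromatin modifiers, growth kinases, zinc finger genes and immune genes. These intervals describe the lists and test nothing, because the sites were chosen with results known. An identical site requires sites in at least 2 lists, and over all such genes the share was 40.9%. On that base translation factors and tRNA synthetases stood at 51.2%, DNA repair genes at 50% and growth kinases at 46.9%. Chromatin modifiers stood at 46.3%, mRNA decay genes at 41.0%, zinc finger genes at 28.6% and immune genes at 25%. The number of sites per gene differed among the 4 lists named: its median was 4 for growth kinases and for chromatin modifiers, 2 for zinc finger genes and 1 for immune genes. The means, in the same order, were 4.18, 4.41, 2.01 and 1.94 sites per gene. Translation factors, with a share of 26.8%, had a median of 2 and a mean of 2.5. A gene with more sites has more chances of an identical one, and the part of this in the shares was not tested.

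**Figure D5:**
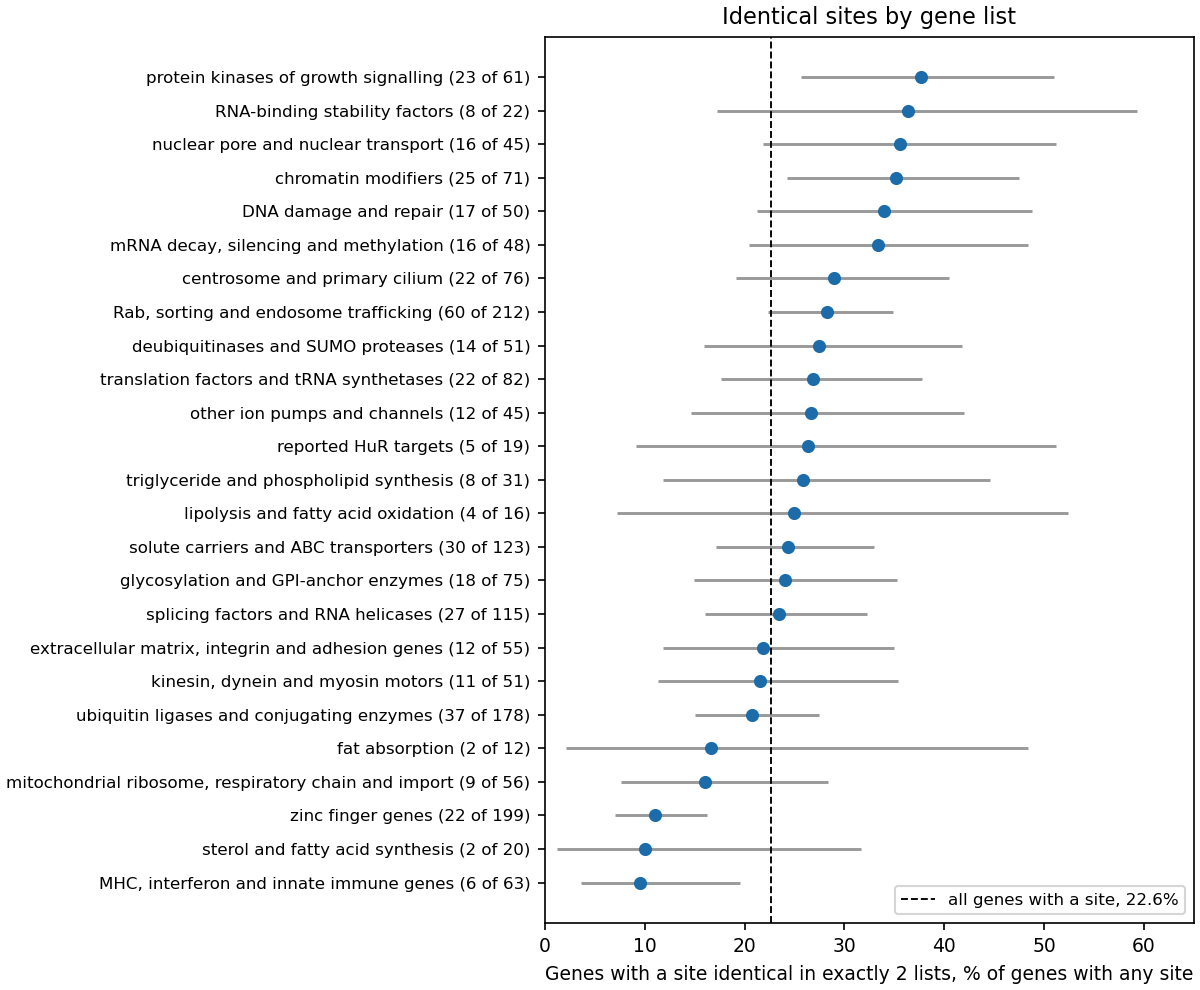
Share of the genes with any site (horizontal axis, percent) that held a site identical in exactly 2 lists, for 25 gene lists, with exact binomial 95% intervals as bars. The dashed line marks the 22.6% of all genes. Growth kinases are highest at 37.7%, and immune genes lowest at 9.52%.

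On the base of genes with any site, kinases of growth signalling had the highest share, 23 of 61 genes (37.7%, 25.6 to 51.0). Of their 29 sites, 18 (62.1%) belonged to lists 2 and 3, which hold 50.7% of all identical sites. The list also counts Tsc2, the brake on mTORC1 that is lost in tuberous sclerosis, which is not itself a kinase. Tsc2 held 3 identical sites, and the strongest had folds of 10.01 in list 2 and 19.2 in list 3 (chromosome 17, 24832165 to 24832287). Map3k5, the stress kinase ASK1, had the same fold of 11.2 in both lists. Mapk14, which encodes p38 alpha and is a reported HuR target, had folds of 9.11 in list 2 and 15.00 in list 3 over 59 bases (chromosome 17, 28934357 to 28934415). Pik3cb, a catalytic subunit of PI3 kinase, had 8.41 in list 2 and 11.6 in list 3 at one site and 7.35 in list 1 and 7.89 in list 3 at another. In all of these but Map3k5, list 3 held the higher fold. It also did so for 88.3% of all identical sites of lists 2 and 3 and 76.9% of those of lists 1 and 3.

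Chromatin modifiers held identical sites in 25 of 71 genes (35.2%, 24.2 to 47.5). Chd9 led them. Its relative Chd6 had 11.02 in list 1 and 10.4 in list 3, the bromodomain gene Brwd1 10.4 in list 2 and 11.2 in list 3, and the H3K4 demethylase gene Kdm5b 11.2 in list 2 and 9.21 in list 3. Among DNA repair genes the count was 17 of 50 (34%, 21.2 to 48.8). The RecQ helicase gene Wrn had 11.5 in list 1 and 8.18 in list 2. The genes of both tyrosyl-DNA phosphodiesterases held an identical site, with 10.4 in list 2 and 9.21 in list 3 in Tdp1 and 10.1 in list 1 and 8.41 in list 3 in Tdp2. Chromatin and repair genes therefore had members of every pair of lists.

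Genes that act on the fate of RNA were read next. RNA-binding stability factors, some of which compete with HuR for mRNA, held identical sites in 8 of 22 genes (36.4%, 17.2 to 59.3). Elavl1 itself held one of 104 bases at chromosome 8, 4354927 to 4355030, with folds of 5.16 in list 2 and 10.9 in list 3. Rc3h2, a roquin that directs decay of mRNAs, held 2, with 8.67 in list 1 and 6.30 in list 2 at one and 5.19 in list 2 and 9.10 in list 3 at the other. Zfp36l1, which binds AU-rich elements and speeds decay, had 6.89 in list 1 and 5.84 in list 2. The stress granule gene G3bp2 had 4.68 in list 1 and 6.43 in list 2, Musashi gene Msi2 7.64 in list 2 and 5.90 in list 3, Celf2 6.79 in list 2 and 8.97 in list 3, and Rbms1 7.43 in list 2 and 9.75 in list 3. None of the 10 sites of this list reached a fold of 10 in both lists. Of them, 6 (60%) belonged to lists 2 and 3, which hold 50.7% of all identical sites.

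In mRNA decay, silencing and methylation, 16 of 48 genes (33.3%, 20.4 to 48.4) held identical sites. Besides Cnot4, another gene of the CCR4-NOT complex, Cnot10, had 10.4 in list 1 and 8.01 in list 3 at one site and 8.41 in list 2 and 12.01 in list 3 at a second. Exosc3, of the RNA exosome, had 12.6 in list 1 and 8.81 in list 3. Smg6, the endonuclease of nonsense-mediated decay, had the same fold of 9.45 in lists 2 and 3. Splicing factors and RNA helicases had 27 of 115 genes (23.5%), near the share of all genes. Ddx31 had 7.61 in list 2 and 13.6 in list 3 and Dhx36, a helicase of G-quadruplexes, 7.48 in list 2 and 7.92 in list 3 at its stronger site.

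Nuclear pore and transport genes stood at 16 of 45 (35.6%, 21.9 to 51.2), and 18 of their 24 sites (75%) belonged to lists 2 and 3, which hold 50.7% of all identical sites. Nup133, of the pore scaffold, had 7.01 in list 2 and 19.05 in list 3 at chromosome 8, 124634495 to 124634613. Nup43 of the same complex had 10.7 in list 2 and 8.54 in list 3, Nup50 7.96 in list 2 and 11.98 in list 3, and the exportin gene Xpo6 9.21 in list 2 and 8.81 in list 3 at its stronger site. A single site of this group belonged to lists 1 and 2.

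Zinc finger genes showed another pattern. They held an identical site in 22 of 199 genes (11.1%, 7.06 to 16.3), and 13 of their 24 sites (54.2%) belonged to lists 1 and 3, which hold 25.4% of all identical sites. Lists 2 and 3 contributed 5 (20.8%). The 4 leading genes of this gene list all had their site in lists 1 and 3. They were Zfp97 and Zfp933, described above, and Zfp382 and Zfp532. Zfp382 had 14.2 in list 1 and 10.4 in list 3, and Zfp532 had 11.02 in list 1 and 10.4 in list 3. The gene list was drawn by gene name and leaves out Unkl, whose site had folds of 20.2 in list 1 and 14.01 in list 2. Among zinc finger genes with sites in at least 2 lists, 77 in number, the share was 28.6%, against 40.9% over all such genes. Immune genes were low as well, with 6 of 63 (9.52%, 3.58 to 19.6). Tnfrsf10b led them, Gbp7, an interferon-induced GTPase, had 7.61 in list 2 and 13.6 in list 3, and Il1r1, the interleukin-1 receptor, had 7.53 in list 1 and 11.7 in list 3.

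Genes of lipid metabolism, the subject of the study, held identical sites at shares of 10% to 25.8% in the 4 gene lists, and at 21.4% to 33.3% under the authors' lipid pathway labels. Triglyceride and phospholipid synthesis had 8 of 31 genes (25.8%, 11.9 to 44.6) with 9 sites. They include 3 genes of the family of acyltransferases that turn lysophosphatidic acid into phosphatidic acid. Agpat4 had folds of 5.51 in list 1 and 6.41 in list 2 (chromosome 17, 12435581 to 12435779). Agpat2, whose loss causes congenital lipodystrophy in people, had 4.95 in list 1 and 5.97 in list 2 over 706 bases (chromosome 2, 26483069 to 26483774). Agpat1 had 4.03 in list 2 and 5.24 in list 3 over 1197 bases (chromosome 17, 34831227 to 34832423). No fold in these 3 genes was above the median of its list, and the sites of Agpat1 and Agpat2 were long.

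Lpin1, the phosphatidic acid phosphatase that makes diacylglycerol, had 6.43 in list 1 and 6.41 in list 3 (chromosome 12, 16594645 to 16594797). Acsl3, an acyl-CoA synthetase of lipid droplets, had 5.53 in list 1 and 7.70 in list 3. The cytosolic phospholipase gene Pla2g4a had 3.99 in list 2 and 5.00 in list 3. The strongest lipid site lay in Pisd, which turns phosphatidylserine into phosphatidylethanolamine in mitochondria, with 13.6 in list 2 and 11.6 in list 3 (chromosome 5, 32903527 to 32903755). Ptdss1, which makes phosphatidylserine, held 2 sites, with 6.48 in list 2 and 7.02 in list 3 and with 5.94 in list 2 and 6.93 in list 3. Pisd was the single gene of this list with a fold above 10.

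Fat absorption genes had 2 of 12 (16.7%, 2.09 to 48.4). Sec23a, a coat protein of vesicles that leave the endoplasmic reticulum, had 7.63 in list 1 and 12.9 in list 3 (chromosome 12, 59048605 to 59048841). Scarb1, a receptor for high-density lipoprotein, had 5.39 in list 2 and 6.95 in list 3 (chromosome 5, 125374290 to 125374405). Sterol and fatty acid synthesis also had 2, of 20 genes (10%, 1.23 to 31.7). The elongase gene Elovl6 had 3.78 in list 2 and 9.53 in list 3, and Mvd, of the mevalonate pathway, had 4.24 in list 2 and 7.88 in list 3. In both the fold of list 3 was close to the 8.38 median of that list while that of list 2 was well under its own.

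Lipolysis and fatty acid oxidation had 4 of 16 (25%, 7.27 to 52.4). Abhd5, the activator of adipose triglyceride lipase, had 8.96 in list 1 and 7.53 in list 3 over 373 bases. Eci2 and Decr1, auxiliary enzymes for unsaturated fatty acids, had 4.53 in list 2 and 8.13 in list 3 and 6.21 in list 2 and 8.32 in list 3. With so few genes, the intervals of all 4 lipid lists reach both sides of 22.6%. In the authors' pathway column the label for glycerolipid metabolism stood at 7 of 21 genes with a site (33.3%), glycerophospholipid metabolism at 11 of 37 (29.7%) and fatty acid metabolism at 6 of 28 (21.4%). The label for fat digestion and absorption stood at 3 of 9 (33.3%), with Agpat1, Agpat2 and Scarb1, while the fat absorption list had 16.7%. Over all genes with a pathway label the share was 24.7%.

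Reported HuR targets, a list written from general knowledge, had 5 of 19 genes (26.3%, 9.15 to 51.2). Besides Mapk14 and Elavl1 these were Hdac2, a histone deacetylase, with 8.30 in list 1 and 6.30 in list 2 (chromosome 10, 36850540 to 36850799), Mdm2, the ubiquitin ligase of p53, with 4.08 in list 2 and 7.25 in list 3, and Hif1a, the hypoxia factor, with 3.23 in list 2 and 5.83 in list 3. Apart from Hdac2 all belonged to lists 2 and 3, and all of these had the higher fold in list 3. Over all identical sites, lists 2 and 3 hold 50.7%, and list 3 was higher for 88.3% of the sites of that pair.

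Genes of protein turnover and membrane traffic made up much of the remainder. Ubiquitin ligases and conjugating enzymes held identical sites in 37 of 178 genes (20.8%), with Trim3 above, Rnf145 with 12.3 in list 2 and 12.9 in list 3 and Fbxo22 with 11.5 in list 1 and 12.8 in list 3. Deubiquitinases and SUMO proteases held them in 14 of 51 (27.5%), among them Senp5 with 12.35 in list 2 and 18.3 in list 3 and Usp24 with 9.64 in list 1 and 12.8 in list 3. Rab, sorting and endosome genes held 71 sites in 60 of 212 genes (28.3%). Beside Rab43 these included the tethering gene Vps50 with 11.02 in list 1 and 12.01 in list 3 and the adaptor gene Ap3b1 with 11.6 in list 2 and 10.2 in list 3. The intervals of these 3 groups reached both sides of 22.6%.

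Transporters had 30 of 123 genes (24.4%) with 40 sites. Abcb1a, a drug efflux pump, had 9.34 in list 1 and 12.3 in list 3, and Slc44a1, a choline transporter, had 9.53 in list 2 and 9.41 in list 3. Ion pumps and channels outside the solute carriers had 12 of 45 (26.7%). Atp6v1h, a subunit of the proton pump of lysosomes, held 3 sites of lists 2 and 3, the strongest with 8.41 in list 2 and 10.01 in list 3. Among motors, 11 of 51 genes (21.6%) held an identical site, and Myo1e, a class I myosin, held 3 of lists 2 and 3, with 12.01 in list 2 and 10.01 in list 3 at the strongest. Kif14, a kinesin of cell division, had 10.6 in list 1 and 6.41 in list 2. Centrosome and cilium genes had 22 of 76 (28.9%), with Cspp1 at 14.2 in list 1 and 10.01 in list 2 and Ninl at 10.4 in list 2 and 11.6 in list 3.

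Translation factors and tRNA synthetases had 22 of 82 genes (26.8%). Of their 24 sites, 15 (62.5%) belonged to lists 2 and 3, against 50.7% of all identical sites. The isoleucyl-tRNA synthetase gene Iars had 11.1 in list 2 and 12.7 in list 3, and Eif2ak4, the amino acid sensor GCN2, had 8.28 in list 1 and 10.5 in list 3. Mitochondrial ribosome, respiratory chain and import genes were fewer, with 9 of 56 (16.1%, 7.62 to 28.3). Opa1, which fuses inner membranes, held 2 sites of lists 1 and 3, the stronger with 9.18 in list 1 and 9.97 in list 3. Adhesion and matrix genes had 12 of 55 (21.8%), with Adamtsl3 at 11.2 in list 2 and 16.02 in list 3 and 3 sites in Col4a5. Glycosylation genes had 18 of 75 (24%), with the branching enzyme gene Mgat5 at 13.6 in list 2 and 11.2 in list 3 and the glycoprotein folding sensor Uggt1 at 9.37 in list 2 and 16.2 in list 3. In each of these 4 lists the interval reached both sides of 22.6%.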

How the data were processed

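Tools named in the submitters' processing notes are HISAT2 2.0.4, STAR, cutadapt 1.9.3 and FastQC, without role or order, and the build is mm39. Site names carry the prefix of the MACS caller, whose version and settings these sources do not give. The authors deposited a list of called sites for each HuR immunoprecipitation. Per the file headers, fold enrichment is the caller's ratio over control and the score is its p as a log10 times minus 10. The deposited FDR was read as percent from its range. None of these values was compared between lists as a measure of binding.

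Sites were compared by chromosome, start and end, with overlap from 1 base, as half-open intervals, and starts are printed from 1 on mm39. Gene and transcript names, and pathway and cell component labels, are those of the files, and both lists gave the same gene for every identical site. Exon and intron positions and sequences were not analysed here. Intervals are exact binomial (Clopper-Pearson) at 95% and cover counting error only.

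The sites and the gene lists were chosen with earlier results of these data known. Named sites are, for each pair of lists, the 8 with the highest lower fold and the 2 longest, genes with several sites, all members of the lipid, RNA-binding stability and HuR target lists, and the leading 4 genes of other lists. Some sites and 1 gene list that this rule names are not reported here. Sites named for length beyond these, for disagreement between lists or for nearness to a remaining site were chosen after their values were seen. Alternatives were a stricter caller p, a fold floor, looser bounds, lists of equal length, and each immunoprecipitation left out. Scripts used Python 3.11.15, pandas 2.3.3, numpy 2.4.6, scipy 1.17.1 and matplotlib 3.10.9, and the search for identical sites was tested on simulated data.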

Additional observations from a re-analysis of the deposited data

How the results depend on the processing

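Counts of identical sites followed the thresholds, while lengths and directions mostly did not. With a score of at least 70 required, 779 sites in 702 genes remained (218, 162 and 399 by pair), and the median fold of lists 1 and 3 in list 3 was 9.61. With a fold of at least 5.86 required, the lower quartile over all lists, 960 sites in 831 genes remained (223, 280 and 457). Median folds under that floor were 8.30 and 8.01 for lists 1 and 2, 7.775 in list 1 for lists 1 and 3, and 7.28 in list 2 for lists 2 and 3. List 3 was then higher for 68.9% and 80.3% of sites. With each immunoprecipitation left out in turn, the sites identical in the remaining pair numbered 557 to 1037 in 527 to 902 genes: 1037 sites without the first, 586 without the second and 557 without the third. With overlap of at least 50% of both sites in place of equal bounds, median lengths were 186 and 150 bases for lists 1 and 2 and for lists 2 and 3. With the 4722 sites of highest score taken from every list, lists 1 and 2 shared 422, lists 1 and 3 shared 247 and lists 2 and 3 shared 510. Lists 1 and 2 then shared more than lists 1 and 3, the reverse of the main counts of 417 and 442. Division of folds by the list median gave 60.2%, 64.0% and 64.1% of sites higher in the list of higher number, and for lists 1 and 2 this turned the direction. Bounds within 10 bases, or keeping sites that overlap the remaining list, moved no total by over 1.5 times. Of the 26 gene lists, the count of genes moved by over 1.5 times in 22 under the stricter score, in 17 under the fold floor, and in 9, 24 and 25 without immunoprecipitation 1, 2 and 3. Fewer sites enter each of these settings by construction. With an immunoprecipitation left out, a single pair of lists stays and the rule on the remaining list falls away. The 140 sites identical in every list then count too, as do those left out for overlap. That setting therefore does not repeat the main rule on fewer lists.

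No paired analysis was possible because no result here comes from a test between groups, and the IgG libraries were not analysed here. Depth is unknown, so a site missing from a list cannot be told apart from one under the caller's threshold. Whether the 3 immunoprecipitations share their cells is not stated.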

Other observations

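By the authors' cell component labels, 1333 of 5797 labelled genes with a site held an identical one (22.99%). The share was 31.7% for cytosol (184 of 581 genes), 26.5% for nucleoplasm (236 of 891), 22.7% for mitochondrion (151 of 666) and 20.7% for integral membrane proteins (204 of 985). By pathway label, Ras signalling stood at 30 of 86 genes (34.9%), pathways in cancer at 47 of 161 (29.2%), MAPK signalling at 31 of 110 (28.2%), endocytosis at 36 of 134 (26.9%) and PI3K-Akt signalling at 27 of 121 (22.3%), against 24.7% of all labelled genes. The terms were chosen after their values were seen, and none was tested.

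Many folds recurred exactly. In list 1, 38.6% of all folds were within 0.0075 of a whole multiple of 0.4591, where other steps of like size gave a median of 2.52%. In list 2 the share was 33.7% for a step of 0.4004, and in list 3 it was 24.1% for a step of 0.4003. Among the identical sites the shares were 31.3%, 27.9% and 25.6%, and those sites stood at a median of 18, 19 and 25 steps. The commonest fold was 7.81 in list 1, held by 199 sites, 7.21 in list 2, held by 191, and 9.61 in list 3, held by 151. The steps were found after the values were seen, and what a step stands for is not given in the sources used here.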
